A study of Mus musculus with 24 samples.

Results

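Endoderm genes were followed in mouse embryonic stem cells that had been grown as embryoid bodies and patterned towards motor neurons. The 10 genes are Sox17, Gata4, Gata6, Dab2, Cubn, Afp, Ttr, Apoa1, Apoe and Sparc. They were chosen by name as genes of endoderm or extraembryonic endoderm, and no measured value enters the rule, although earlier results of these data were known when they were chosen. All 10 were found among the 22889 entries of the deposited RPKM table (mapped reads scaled to transcript length and library total). The study set out to generate oculomotor neurons (OMNs) in culture and to compare them with spinal cord motor neurons (SC MNs), and it sequenced polyadenylated RNA of sorted cell fractions.

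The 24 samples form 4 groups of 6. OMN cultures came from an Islet1-GFP line that carries Phox2a under the nestin enhancer (NesEPhox2a), so that the transgene is limited to cells that use this neural progenitor enhancer, and were patterned for 5 days with 250 nM SAG (an agonist of Smoothened, which switches on sonic hedgehog signalling) and 100 ng/ml Fgf8. SC MN cultures came from an Hb9-GFP line and received 500 nM SAG and 100 nM retinoic acid for 5 days. From each culture, GFP-positive cells (the reporter marks motor neurons) and GFP-negative cells were collected as bulk by fluorescence-activated sorting. Line, transgene, reporter and patterning change together, so their parts in a difference between the cultures cannot be told apart. Nothing in the labels says that the replicates were separate cultures, and p values then measure the spread between these samples.

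During mouse development, primitive endoderm gives rise to visceral endoderm, which wraps the embryo and takes up nutrients, and to parietal endoderm, which lays down a thick basement membrane. The transcription factors Gata6, Gata4 and Sox17 act early in this lineage, and Sox17 and the Gata factors also serve the definitive endoderm that forms the gut and liver. Embryoid bodies commonly carry an outer layer of such cells. Visceral endoderm secretes many of the proteins that the liver later releases into plasma, whereas Apoe and Sparc are also used by many cells outside endoderm.

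The sorts and the depth were checked first. Isl1, a motor neuron transcription factor, lay at 141 to 369 RPKM in OMN GFP-positive samples and at 0.696 to 1.87 RPKM in OMN GFP-negative samples. In the 5 SC MN replicates other than replicate 4, Mnx1 (the gene of Hb9) lay at 55.8 to 149 RPKM in GFP-positive and at 0.189 to 4.72 RPKM in GFP-negative cells. SC MN replicate 4 stood apart in both fractions. Its GFP-negative library held 69.4 RPKM of Mnx1 and its GFP-positive library 43.1 RPKM. Isl1 lay at 7.63 RPKM in its GFP-positive library, against 50.4 to 123 RPKM in the other 5. In its GFP-negative library Isl1 lay at 8.56 RPKM, within the 0.392 to 9.1 RPKM of the other 5. Both were rich in the pluripotency factor Nanog (185 RPKM in GFP-negative and 156 RPKM in GFP-positive cells), against at most 9.48 and 40.5 RPKM in the others. The log2 values of these libraries correlated at r = 0.956 over 11952 genes, against 0.785 to 0.902 for the other 11 pairs of fractions. The library labelled SC MN GFP-negative replicate 4 therefore goes against its label. SC MN GFP-positive replicate 4 departs from its group too, with less Isl1 and with 36.4 RPKM of the neuronal gene Tubb3, against 121 to 785 RPKM in the other 5. The number of endoderm genes called in each comparison, and most counts over a list, are given with and without replicate 4 of both SC MN fractions. Differences of single genes are from all samples unless said otherwise. In SC MN GFP-negative replicate 2, 3 predicted gene models (Gm10800, Gm10801 and Gm21738) took 68.81% of the summed RPKM, which lowers the RPKM of all other genes there. They took 17.79% in SC MN GFP-positive replicate 2 and 5.44% in SC MN GFP-negative replicate 6, so the fractions of replicate 2 were lowered unequally. Estimated depth ran from 752529 to 7675428 reads, and replicates 5 and 6 were deeper (median 6979753) than replicates 1 to 4 (median 2833426). At these depths, 1 RPKM of a transcript of 1 kb stands for 0.753 to 7.68 reads, so levels near or below 1 RPKM rest on few reads.

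Medians of 9 of the 10 genes were highest in SC MN GFP-negative cells, and that of Apoe was highest in OMN GFP-negative cells. For Afp, 1 of the 9, the medians were 0.175 RPKM in SC MN and 0.11 RPKM in OMN GFP-negative cells. In each of these groups 3 of 6 samples were at 0. The share of all genes with this order was not counted. In bulk samples, fewer cells of a type and less RNA per cell cannot be told apart.

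**Figure D1:**
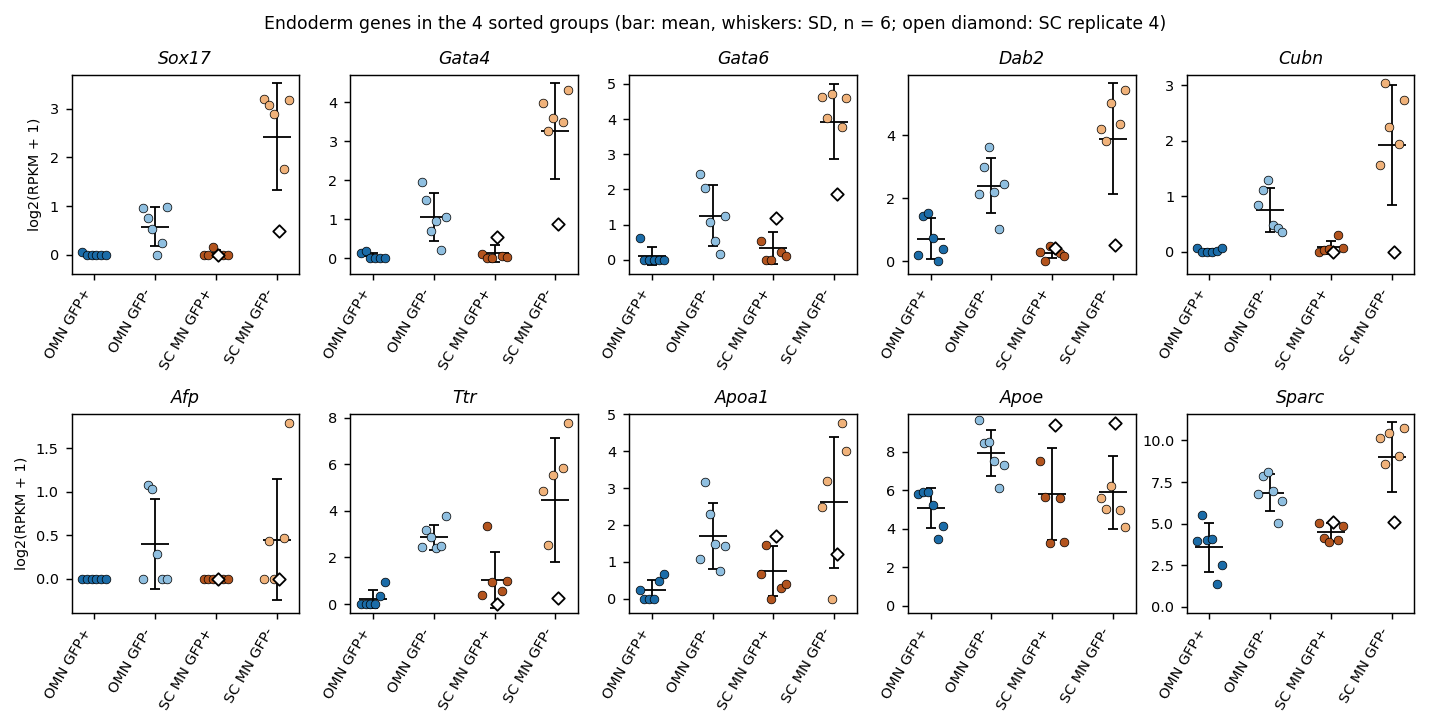
Levels of the 10 endoderm genes as log2(RPKM + 1) on the vertical axis, in the 4 sorted groups on the horizontal axis; each point is a sample, bars are means, whiskers SD (n = 6), and open diamonds are SC MN replicate 4. Medians of 9 genes are highest in SC MN GFP-negative cells, where the open diamond is the lowest point for Sox17, Gata4, Gata6, Dab2, Cubn, Ttr and Sparc.

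The transcription factors were close to 0 in sorted motor neurons and well above it in SC MN GFP-negative cells. Sox17 (chr1:4490931-4497354, minus strand, GRCm38), an HMG-box factor needed to form endoderm, lay at 0.394, 6.92 and 8.15 RPKM (lowest, median and highest) in SC MN GFP-negative samples, and at most 0.121 RPKM in SC MN GFP-positive samples. In OMN cultures it ran from 0 through 0.563 to 0.979 RPKM in GFP-negative samples, and up to 0.0451 RPKM in GFP-positive samples. The lowest SC MN GFP-negative value belonged to replicate 4, and the next lowest was 2.38 RPKM, so that without it the GFP-negative samples of the cultures did not overlap.

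Gata4 (chr14:63198922-63271692, minus strand), a zinc finger factor of primitive endoderm and of heart, showed 0.844, 10.7 and 19.1 RPKM in SC MN GFP-negative samples and at most 0.459 RPKM in SC MN GFP-positive samples. OMN GFP-negative samples held 0.159, 1.01 and 2.91 RPKM of it, and OMN GFP-positive samples at most 0.139 RPKM. Gata6, a related factor that can drive embryonic stem cells to primitive endoderm, showed 2.65, 19.2 and 25.0 RPKM in SC MN GFP-negative samples against at most 1.28 RPKM in SC MN GFP-positive samples. Both Gata genes had replicate 4 as their lowest SC MN GFP-negative sample and as their highest SC MN GFP-positive sample. In OMN cultures, Gata6 lay at 0.130, 1.23 and 4.42 RPKM in GFP-negative samples, and at 0 in 5 of the 6 GFP-positive samples.

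Dab2 and Cubn belong to the uptake machinery of visceral endoderm: Cubn (cubilin) is a large receptor for vitamin and protein cargo, and Dab2 is the adaptor that links such receptors to clathrin. Dab2 spans chr15:6299788-6440712 on the plus strand and Cubn chr2:13276338-13491813 on the minus strand of GRCm38. Their promoter stretches are shown because both genes were called higher in SC MN GFP-negative cells, together with the Gata factors. Each is the run of 250 bases before a RefSeq start of transcription (GRCm38.p6), 5′ to 3′ on the gene's strand, with matches to a GATA motif in capitals.
Dab2, chr15:6299539-6299788, plus strand: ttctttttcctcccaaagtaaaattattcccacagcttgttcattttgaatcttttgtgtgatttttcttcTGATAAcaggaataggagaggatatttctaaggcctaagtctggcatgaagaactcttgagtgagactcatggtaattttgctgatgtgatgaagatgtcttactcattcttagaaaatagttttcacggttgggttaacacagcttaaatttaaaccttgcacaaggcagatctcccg
Cubn, chr2:13491877-13492126, minus strand: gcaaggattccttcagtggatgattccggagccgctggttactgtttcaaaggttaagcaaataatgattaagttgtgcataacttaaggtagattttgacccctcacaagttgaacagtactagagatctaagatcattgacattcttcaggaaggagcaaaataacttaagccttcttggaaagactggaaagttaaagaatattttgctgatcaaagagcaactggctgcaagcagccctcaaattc

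The letters searched for GATA on both strands were AGATAA with its variant AGATAG, besides TGATAA with its variant TGATAG. The Dab2 stretch shown holds 1 match, which begins 179 bases before the start, and the Cubn stretch holds none. The stretch of the other Dab2 start (chr15:6386498-6386747), not shown, holds none either. Of 32851 RefSeq promoter stretches of the same length, 26.5% hold such a match. A match is a description of the letters and not a binding site. RefSeq stretches were searched for 6 of the 10 genes, 9 in all since Apoe and Dab2 have several starts, and 3 of the 9 hold a GATA match (1 each of Dab2, Apoa1 and Apoe). Stretches of Sox17, Gata4, Gata6 and Ttr are not among the 9, so the counts say nothing about them. None of the 9 holds the FOXA letters TGTTTAC or TATTTAC, which 5.76% of all stretches hold. The letters GTTAAT, searched for HNF1, occur in 1 stretch each of Afp, Apoe, Dab2 (the stretch not shown) and Sparc. Of all stretches, 6.43% hold GTTAAT. Whether the 9 stretches hold any of these letters more often than other stretches was not tested.

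Dab2 lay at 0.449, 18.5 and 42.9 RPKM in SC MN GFP-negative samples, against at most 0.394 RPKM in SC MN GFP-positive samples. Its OMN GFP-negative samples showed 1.04, 4.08 and 11.4 RPKM, and its OMN GFP-positive samples 0, 0.495 and 1.92 RPKM. Replicate 4 was again the lowest SC MN GFP-negative sample, and the others started at 13.0 RPKM. Cubn ran from 0 (replicate 4) through 3.29 to 7.24 RPKM in SC MN GFP-negative samples, from 0.281 through 0.591 to 1.45 RPKM in OMN GFP-negative samples, and did not exceed 0.231 RPKM in any GFP-positive sample.

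The secreted plasma proteins did not move as a block. Ttr, the carrier of thyroid hormone and retinol-binding protein, was made most in SC MN GFP-negative samples, at 0.193, 36.9 and 218 RPKM, the highest being replicate 6 and the lowest replicate 4. SC MN GFP-positive samples ranged from 0 to 9.17 RPKM (replicate 2) with a median of 0.701 RPKM, so those fractions overlapped. In replicate 2 the predicted gene models named above lowered GFP-negative values more than GFP-positive ones. OMN GFP-negative samples held 4.26, 5.45 and 12.7 RPKM and OMN GFP-positive samples at most 0.950 RPKM, without overlap. Ttr is also a main product of the choroid plexus. The 10 choroid plexus genes examined summed to between 7.18 and 95.6 RPKM in SC MN GFP-negative, between 28.3 and 87.4 RPKM in OMN GFP-negative and at most 34.6 RPKM in GFP-positive samples, of which Otx2, a head organizer and visceral endoderm factor as well, gave 8.84 to 32.2 RPKM in OMN GFP-negative samples. In all samples Otx2 and Folr1 of this list were called lower in OMN GFP-positive cells by limma, and Clic6 in SC MN GFP-positive cells. The choroid channel gene Kcnj13, also of the list, had a median of 0 RPKM in OMN GFP-negative and SC MN GFP-negative samples. The part of such cells in the Ttr level was not tested.

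Apoa1 (chr9:46228580-46230466, plus strand), the main protein of high-density lipoprotein, ranged widely. It was listed at 0 in SC MN GFP-negative replicate 3 and at 26.4 RPKM in replicate 5, with a median of 6.39 RPKM, and at 0 to 2.28 RPKM in SC MN GFP-positive samples. OMN GFP-negative samples ran from 0.671 through 1.75 to 7.97 RPKM, above all OMN GFP-positive samples, which reached 0.586 RPKM. Afp (chr5:90490737-90508907, plus strand), the fetal counterpart of albumin, was listed at 0 in all 12 GFP-positive samples. Among GFP-negative samples it was above 0 in 3 of 6 in each culture, at 0.220 to 1.11 RPKM in OMN and 0.351 to 2.47 RPKM in SC MN. A count of 0 allows 3 reads, which for a transcript of 1 kb is 0.391 to 3.99 RPKM depending on the sample, so a sample listed at 0 could still hold Afp up to that level. Afp was listed above 0 below that level in some samples.

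Apoe (chr7:19696109-19699188, minus strand), a lipid carrier made by liver, glia, macrophages and stem cells, followed another order. OMN GFP-negative samples held 69.4, 267 and 809 RPKM, and OMN GFP-positive samples 9.88, 45.5 and 59.9 RPKM, without overlap. The SC MN fractions overlapped fully, at 8.65, 48.2 and 686 RPKM in GFP-positive and 16.1, 40.1 and 720 RPKM in GFP-negative samples, and replicate 4 was the highest of both. Apoc1, the gene next to Apoe, was likewise high in replicate 4 (104 and 112 RPKM) and in OMN GFP-negative samples (5.98 to 85.4 RPKM), and at most 15.1 RPKM in all other samples. Pluripotency genes moved with them in part: the 11 examined summed to 752 to 9894 RPKM in OMN GFP-negative samples, 1.01 to 266 RPKM in OMN GFP-positive samples, and 5458 and 6138 RPKM in the fractions of SC MN replicate 4. SC MN GFP-positive replicate 5 had the highest such sum, 12440 RPKM, with 47.0 RPKM of Apoe. A sum of RPKM follows its most abundant genes, so it need not rank samples by their share of pluripotent cells. The part of pluripotent cells in the Apoe level was not tested.

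Sparc (chr11:55394500-55423183, minus strand), a collagen-binding matrix protein that parietal endoderm makes in quantity, reached the highest levels of the 10 genes. SC MN GFP-negative samples held 32.9 (replicate 4), 838 and 1701 RPKM, and SC MN GFP-positive samples 13.9, 22.0 and 32.8 RPKM. OMN GFP-negative samples held 31.4, 116 and 277 RPKM and OMN GFP-positive samples 1.53, 14.8 and 44.6 RPKM. SC MN fractions did not overlap, though replicate 4 cleared the highest GFP-positive sample only barely, and OMN fractions overlapped.

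**Figure D2:**
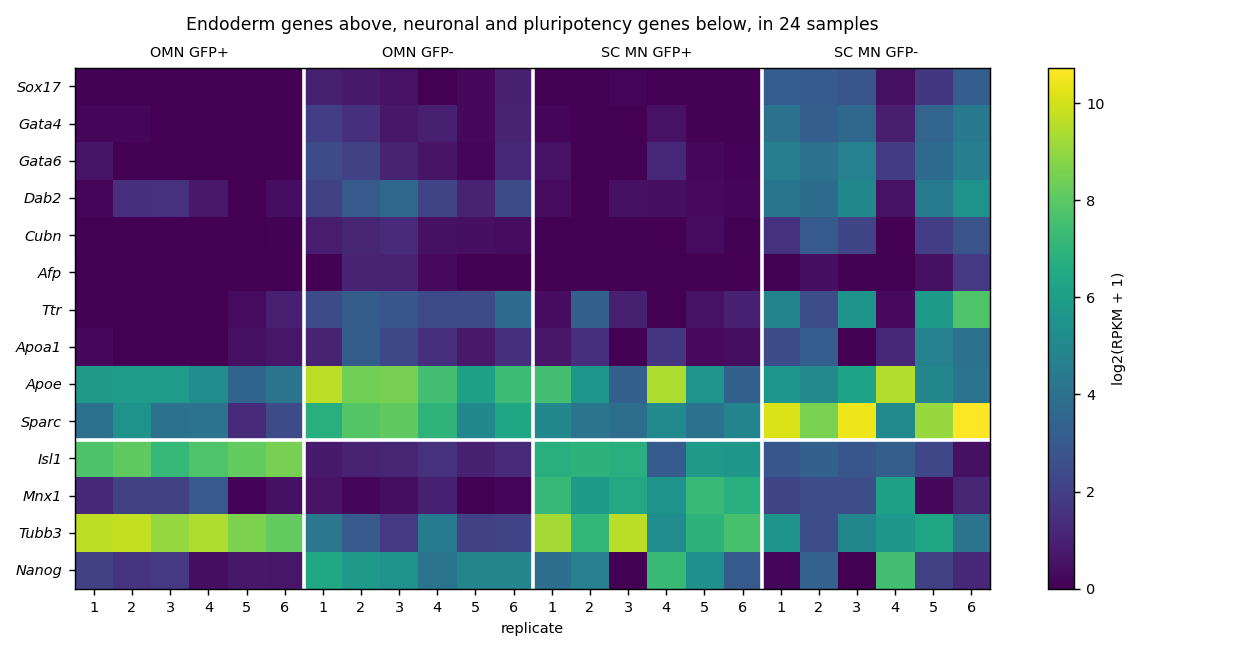
Heat map of log2(RPKM + 1) for the 10 endoderm genes (upper rows) and 4 genes that mark motor neurons (Isl1, Mnx1), neurons (Tubb3) and pluripotent cells (Nanog), with 1 column per replicate in the 4 groups. The column of SC MN GFP-negative replicate 4 is dark for Sox17, Gata4 and Cubn and bright for Mnx1 and Nanog, like SC MN GFP-positive replicate 4.

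To ask how the endoderm genes differed between motor neurons and the other cells of the same cultures, GFP-positive samples were compared with GFP-negative samples with limma on log2(RPKM + 1), with Benjamini-Hochberg adjustment over all genes tested. On this scale the fold change of genes near 1 RPKM is understated. Differences are GFP-positive minus GFP-negative, so that negative values mean more RNA in GFP-negative cells.

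In SC MN cultures 7 of the 10 genes were called, all lower in GFP-positive cells, where 0.83% of 22179 genes tested were called lower. Sparc differed most, at -4.52 ± 0.77 (log2 difference ± SE, adjusted p = 0.0025, limma). Dab2 differed by -3.62 ± 0.58 (adjusted p = 0.00184), Gata6 by -3.58 ± 0.43 (adjusted p = 0.000143) and Gata4 by -3.13 ± 0.40 (adjusted p = 0.000267). All 6 pairs of fractions had more Gata4, Gata6, Sox17, Dab2 and Sparc RNA in GFP-negative cells. Ttr (-3.44, adjusted p = 0.0325), Sox17 (-2.40, adjusted p = 0.000397) and Cubn (-1.84, adjusted p = 0.0034) were called as well. Apoa1 (-1.86, adjusted p = 0.152), Afp (-0.45, adjusted p = 0.527) and Apoe (-0.11, adjusted p = 0.995) were not. For Apoe the 95% interval ran from -2.03 to 1.82, and the sign turned when SC MN GFP-negative replicate 4 alone was left out (0.61). Groups did not overlap for 5 genes (Sox17, Gata4, Gata6, Dab2 and Sparc), against 0.397% of all genes tested that were lower without overlap.

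Without replicate 4 of both fractions, the differences of the 7 genes grew. Then 8 of 10 genes were called lower, Apoa1 now among them (-2.33, adjusted p = 0.0431), beside 1.54% of 21837 genes tested. Gata6 reached -4.17 ± 0.36 (adjusted p = 5.03e-07), Dab2 -4.33 ± 0.43 (adjusted p = 1.42e-06) and Sparc -5.43 ± 0.65 (adjusted p = 1.62e-05). Groups then did not overlap for 6 genes (Cubn in addition), beside 1.46% of all genes tested. In a fit of the 12 SC MN samples alone, replicate 4 included, only Gata6 was called (1 of 10, beside 0.0144% of all genes tested). In the fit of all 24 samples the median difference of the 10 genes was -2.77 (-3.24 without replicate 4), and that of all genes tested was 0 in both.

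All 10 differences were negative in the shallower and in the deeper replicates. For Gata6 it was -3.37 in replicates 1 to 4 (adjusted p = 0.0805) and -4.00 in replicates 5 and 6 (adjusted p = 0.0145). For Ttr it was -2.13 (adjusted p = 0.611) and -6.04 (adjusted p = 0.015), and for Apoa1 -0.77 (adjusted p = 0.855) and -4.04 (adjusted p = 0.011). No endoderm gene was called in replicates 1 to 4 alone, which include replicate 4, and the share of all genes called in that fit is not given here. In replicates 5 and 6 alone, 7 were called lower (Gata4, Gata6, Ttr, Apoa1, Dab2, Cubn and Sparc), beside 1.02% of all genes tested.

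**Figure D3:**
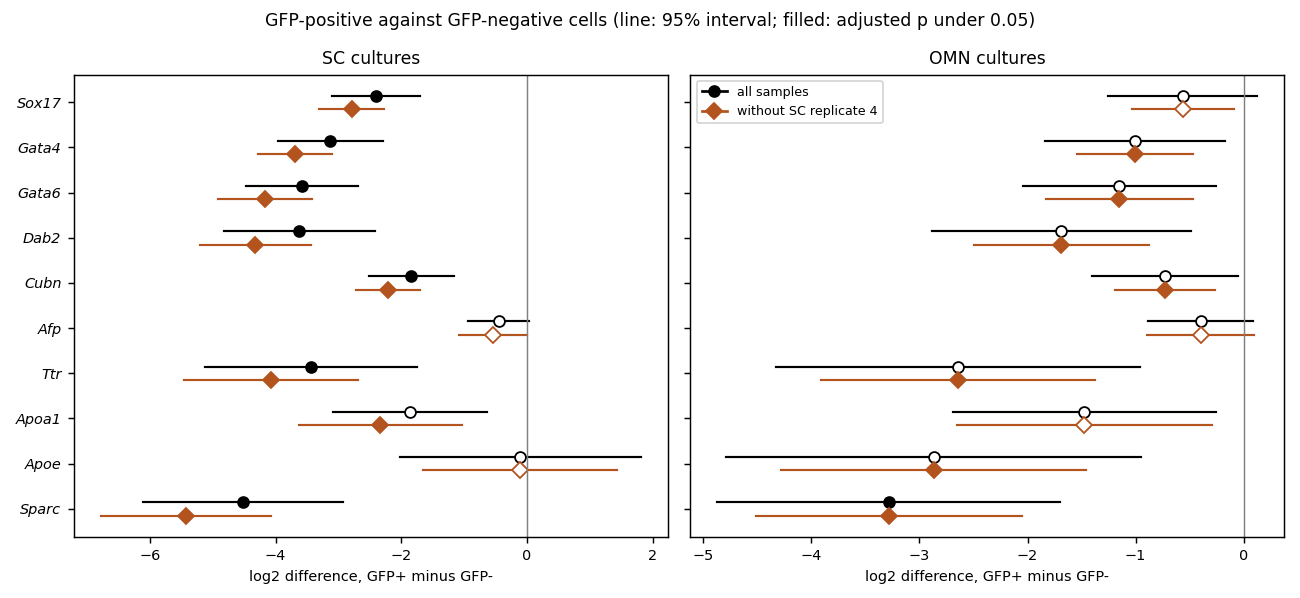
Log2 differences of GFP-positive minus GFP-negative cells for each endoderm gene, in SC MN cultures (left) and OMN cultures (right); lines are 95% intervals, filled symbols passed an adjusted p of 0.05, circles are all samples and diamonds leave out SC MN replicate 4. Filled circles stand for 7 genes in SC MN cultures and for Sparc alone in OMN cultures, where 7 diamonds are filled.

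In OMN cultures all 10 differences were negative too, and 1 gene was called lower in GFP-positive cells, where 2.34% of all genes tested were. This gene was Sparc (-3.28 ± 0.77, adjusted p = 0.0102). The next were Ttr (-2.65 ± 0.82, adjusted p = 0.0547), Apoe (-2.87 ± 0.93, adjusted p = 0.0701) and Dab2 (-1.69 ± 0.58, adjusted p = 0.0899). Gata6 (-1.15), Gata4 (-1.01), Cubn (-0.73), Sox17 (-0.56), Apoa1 (-1.47) and Afp (-0.40) did not pass either. For 5 genes (Gata4, Ttr, Apoa1, Apoe and Cubn) the groups did not overlap, against 2.48% of all genes tested.

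The spread in this test is shared with the SC MN samples. Without SC MN replicate 4, whose values do not enter the OMN means, the differences were the same and 7 genes were called (Gata4, Gata6, Ttr, Apoe, Dab2, Cubn and Sparc), beside 3.98% of all genes tested. Those adjusted p values lay between 0.000956 (Sparc) and 0.0434 (Cubn). A fit of the 12 OMN samples alone called 9 genes, all but Afp, beside 6.04% of all genes tested. With the replicate number as a block within each culture, which pairs the fractions, 4 genes were called (Sparc, Apoe, Dab2 and Ttr), beside 8.21% of all genes tested. With a plain replicate block 3 were called (Sparc, Apoe and Ttr), beside 4.81% of them. The median difference was -1.31 over the 10 genes and 0 over all genes tested.

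Whether the fraction difference itself differed between the cultures was tested as an interaction (the OMN difference minus the SC MN difference, positive where GFP-negative SC MN cells held the larger excess). In all samples 0 of the 10 genes were called by limma, beside 0.32% of all genes tested. The unadjusted p was under 0.05 for 6 (Sox17, Gata4, Gata6, Apoe, Dab2 and Cubn). The share of all genes with such an unadjusted p was not counted, so this number cannot be read as particular to the endoderm genes. Gata6 had 2.43 ± 0.61 (adjusted p = 0.0984) and Sox17 1.84 ± 0.47 (adjusted p = 0.112). Without SC MN replicate 4, 5 genes were called higher, beside 0.604% of all genes tested. They were Gata6 (3.02 ± 0.49, adjusted p = 0.00222), Gata4 (2.68 ± 0.38, adjusted p = 0.000733), Dab2 (2.64 ± 0.58, adjusted p = 0.0246), Sox17 (2.22 ± 0.34, adjusted p = 0.00111) and Cubn (1.49 ± 0.33, adjusted p = 0.0257). In GFP-positive cells of both cultures these 5 genes were low, with medians of at most 0.495 RPKM. For them the test therefore largely repeats the difference between GFP-negative cells given below, with its sign turned. Apoe went the other way, at -2.75 with an adjusted p of 0.312, since its excess in GFP-negative cells was seen in OMN cultures. With a replicate block within each culture, Apoe was the 1 gene called in all samples, beside 2.04% of all genes tested. Without replicate 4 that block called 6 genes (Sparc beside the 5 above), beside 2.29% of them.

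GFP-negative cells were then compared between the cultures, in samples that the comparisons above also used. Differences are OMN minus SC MN. In all samples 3 genes were called lower in OMN cells, beside 0.55% of all genes tested: Gata6 (-2.68 ± 0.43, adjusted p = 0.00192), Gata4 (-2.20 ± 0.40, adjusted p = 0.00594) and Sox17 (-1.86 ± 0.33, adjusted p = 0.0049). Cubn (-1.17, adjusted p = 0.0952), Sparc (-2.17, adjusted p = 0.235), Dab2 (-1.49, adjusted p = 0.301), Ttr (-1.61, adjusted p = 0.467), Apoa1 (-0.91, adjusted p = 0.587) and Afp (-0.05, adjusted p = 0.969) did not pass. Apoe was on the other side, at 2.04 (adjusted p = 0.409). No endoderm gene had separate groups in all samples (0.87% of all genes tested were lower in OMN cells without overlap), and SC MN replicate 4 lay among the OMN values or below them for Sox17, Gata4, Gata6, Dab2, Cubn and Sparc. Afp, Ttr, Apoa1 and Apoe overlapped without it as well.

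Leaving out that replicate called 7 genes lower, where 1.47% of all genes tested were, and Apoe higher, as were 1.2% of them. The added genes were Dab2 (-2.16 ± 0.41, adjusted p = 0.00371), Cubn (-1.56 ± 0.23, adjusted p = 0.000371), Sparc (-2.95 ± 0.62, adjusted p = 0.00948), Ttr (-2.45 ± 0.64, adjusted p = 0.0399) and, in the opposite direction, Apoe (2.75 ± 0.71, adjusted p = 0.0379). Then 6 genes were lower in every OMN sample than in every SC MN sample, beside 1.8% of all genes tested. A fit of the GFP-negative samples alone called 1 gene (Gata6) with replicate 4, beside 0.369% of all genes tested, and 7 genes without it, beside 1.63%.

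The size of this difference depended on the replicates. Sparc differed by -1.14 in replicates 1 to 4 and by -4.21 in replicates 5 and 6, Ttr by -0.58 and -3.67, and Dab2 by -0.65 and -3.17. Apoa1 changed side, at 0.28 in replicates 1 to 4 and -3.30 in replicates 5 and 6. Gata6 (-2.28 and -3.47) and Sox17 (-1.85 and -1.86) moved less. Replicates 1 to 4, which include SC MN replicate 4, called 0 of the 10 genes by limma (share of all genes not given here). Replicates 5 and 6 called 5 lower (Gata4, Gata6, Apoa1, Cubn and Sparc), beside 0.965% of all genes tested.

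**Figure D4:**
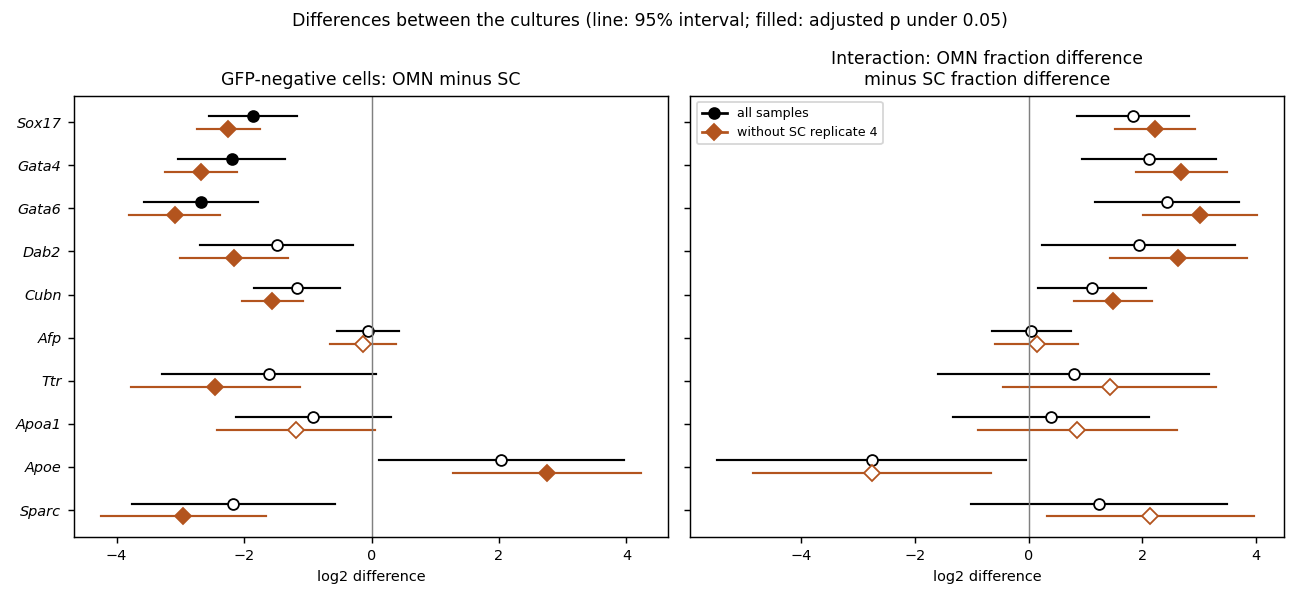
Left, log2 difference of OMN minus SC MN GFP-negative cells for each endoderm gene; right, the interaction (OMN fraction difference minus SC MN fraction difference). Lines are 95% intervals and filled symbols passed an adjusted p of 0.05; on the left 3 circles (all samples) and 8 diamonds (without SC MN replicate 4) are filled, and Apoe lies to the right of 0.

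The sorted motor neurons of the cultures were compared with each other as well. Between OMN and SC MN GFP-positive cells, 0 of the 9 genes that could be tested were called by limma, with and without replicate 4, beside 0.603% of 19240 genes (0.633% without it), and Afp at 0 in all of them was not tested. In all samples no unadjusted p was under 0.05, and without replicate 4 that of Ttr was (0.0467), with the share of all genes by that rule not counted. Among OMN GFP-positive minus SC MN GFP-positive differences, Sparc (-0.93, 95% interval -2.16 to 0.31), Ttr (-0.82, -1.81 to 0.17) and Apoe (-0.73, -2.74 to 1.29) left the widest room. Intervals of Sox17 (-0.12 to 0.09), Cubn (-0.18 to 0.08) and Gata4 (-0.27 to 0.13) were narrow, with all these samples below 0.5 RPKM. At such levels the added 1 RPKM shrinks any difference, so a narrow interval does not show equal levels.

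Lists of related genes were counted the same way. Genes of basement membrane and parietal endoderm were called lower in SC MN GFP-positive cells for 11 of 16 (12 without replicate 4), among them the collagen IV chains Col4a1 (-5.29 ± 0.84, adjusted p = 0.00182) and Col4a2 (-4.81, adjusted p = 0.00185), the laminin chain Lamb1 (-4.33, adjusted p = 0.000512) and the activin inhibitor Fst (-4.08, adjusted p = 0.00665). Col4a1 had 257 RPKM at the median of SC MN GFP-negative cells and 2.85 RPKM at that of SC MN GFP-positive cells. In OMN cultures 2 of the 16 were called lower, and 7 without SC MN replicate 4. Between GFP-negative cells, 3 were lower in OMN cultures, and 11 without that replicate. The list's median difference between SC MN fractions was -2.56 in all samples.

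Other endoderm transcription factors were called lower in SC MN GFP-positive cells for 3 of 13 (4 without replicate 4), with Sox7 (-1.89, adjusted p = 0.00945; -2.21 without it) among them. OMN fractions gave, with and without SC MN replicate 4, 2 lower, with Foxa2 (-2.06, adjusted p = 0.047), which also marks floor plate, and 1 higher, Gsc (1.97, adjusted p = 0.0399). In all samples 845 of 22179 genes tested were called higher there. Median differences of this list in all samples were -0.08 in SC MN and -0.51 in OMN cultures.

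Of 16 endocytic partners and surface proteins of visceral endoderm, 10 were called lower in GFP-positive cells of OMN cultures and 4 in those of SC MN cultures (11 and 5 without SC MN replicate 4), a difference that was not tested. They included the epithelial adhesion gene Epcam (-4.30, adjusted p = 0.000241), the Nodal co-receptor Tdgf1 (-4.13, adjusted p = 0.00322), the Nodal inhibitor Lefty1 (-4.03, adjusted p = 0.0114) and, in both cultures, the keratin Krt8 (-3.87 in SC MN, adjusted p = 0.00757). Epcam, Tdgf1 and Lefty1 are also made by pluripotent cells. Lrp2 (megalin), the partner of cubilin, was named after its values were seen: it was lower in GFP-positive cells by -2.17 ± 0.29 in OMN (adjusted p = 3.05e-05) and by -1.18 ± 0.29 in SC MN cultures (adjusted p = 0.0376). Unlike Cubn, Lrp2 was higher in OMN than in SC MN GFP-negative cells in all samples (1.18, adjusted p = 0.0475), though it did not pass without SC MN replicate 4 (0.98, adjusted p = 0.0568).

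Plasma proteins of yolk sac and liver were called lower in SC MN GFP-positive cells for 3 of 18 (4 without replicate 4), led by Rbp4, the retinol carrier that binds Ttr (-5.12 ± 0.75, adjusted p = 0.000749), and Mttp, which loads lipid on apolipoproteins (-1.30, adjusted p = 0.0112). Rbp4 lay at 5.44 to 416 RPKM in SC MN GFP-negative and at most 5.01 RPKM in SC MN GFP-positive samples. F2 (prothrombin) was lower in OMN than in SC MN GFP-negative cells (-1.82, adjusted p = 0.000743; -2.03 without replicate 4). In OMN cultures Apoc1 was the 1 gene called, with and without that replicate (-3.91, adjusted p = 0.0156 in all samples).

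**Figure D5:**
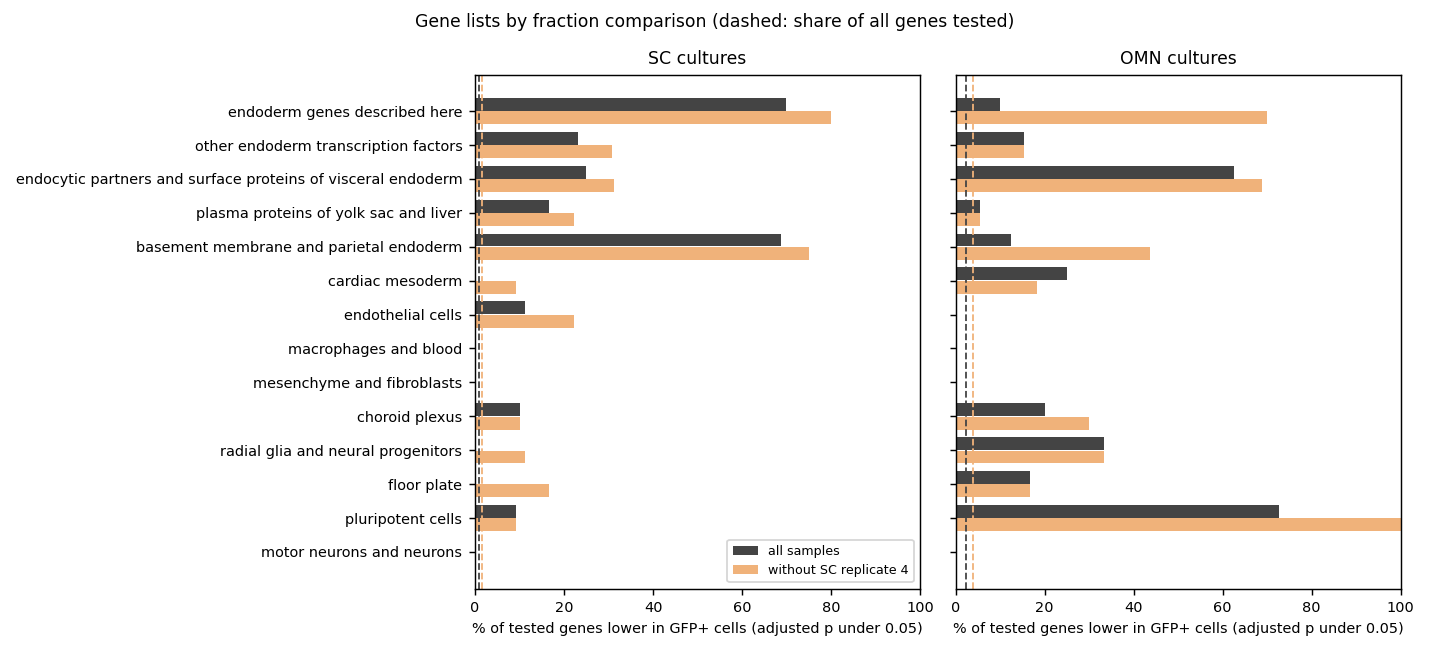
Share of each list's tested genes that were called lower in GFP-positive cells (horizontal axis, percent) in SC MN cultures (left) and OMN cultures (right), for all samples (dark bars) and without SC MN replicate 4 (light bars); dashed lines are the shares of all genes tested (0.83% and 1.54% left, 2.34% and 3.98% right). The endoderm genes and the basement membrane list have the longest dark bars in SC MN cultures, and pluripotency genes the longest in OMN cultures.

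Markers of other cells were counted beside them. Pluripotency genes were called lower in OMN GFP-positive cells for 8 of 11 (11 without SC MN replicate 4; Dppa5a -6.96, adjusted p = 0.0025) and in SC MN GFP-positive cells for 1 of 11 in both. In all samples 1 of 9 endothelial genes (Flt1, -1.57, adjusted p = 0.014) was called lower in SC MN GFP-positive cells, and 0 of 12 cardiac, 0 of 6 macrophage and blood, and 0 of 13 mesenchymal genes by limma. Without replicate 4 the counts were 2 endothelial, 1 cardiac, 0 macrophage and blood, and 0 mesenchymal genes. In SC MN GFP-negative samples the cardiac list summed to 6.17 to 19.2 RPKM, the macrophage and blood list to 0.544 to 5.73 RPKM and the mesenchymal list to 3.14 to 30.6 RPKM, while the basement membrane list summed to 144 (replicate 4) to 1645 RPKM. Motor neuron and neuronal genes were higher in GFP-positive cells for 12 of 14 in OMN and 6 of 14 in SC MN cultures (12 and 8 without SC MN replicate 4). Of all 22179 genes tested, 845 were called higher in OMN and 88 in SC MN GFP-positive cells. Without replicate 4 these were 957 and 296 of 21837, so the counts of the 2 cultures have unlike backgrounds. The part of each of these cell types in the endoderm gene levels was not tested.

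Across the 24 samples, the genes most like each endoderm gene were taken by Pearson's r of log2(RPKM + 1) among 14328 genes above 1 RPKM in at least 3 samples. These correlations describe 4 groups that share culture, fraction and depth, and carry no test. Gata4 and Gata6 were each other's closest (r = 0.983, Spearman 0.950), and Sox17 was closest to Gata4 (0.962). Dab2 was closest to Col4a1 (0.974) and Col4a2 (0.968), and Sparc to Col4a1 (0.965), Lamb1 (0.954) and Lama1 (0.949). Cubn was closest to BC025446 (0.969), which was also the second closest of Sox17 (0.959). Ttr was closest to Tspan8 (0.910), Apoa1 to Tfpi (0.838) and Afp to Foxa3 (0.782). Apoe stood apart from the other genes, with r between -0.106 (Sox17) and 0.198 (Sparc), and was closest to Fancd2 (0.937), Cad (0.920) and Ung (0.916), which serve DNA repair and nucleotide synthesis.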

How the data were processed

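Polyadenylated RNA of 24 sorted samples (4 groups of 6) was sequenced with SMART-seq2 and Tn5 tagmentation. The authors mapped reads with HISAT2 2.0.3 to mm10 (GRCm38) and deposited RPKM per gene from rpkmforgenes, without read counts, and made their own comparisons from counts. RPKM divides by library total and length, so a few very abundant RNAs lower all others.

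Values were compared as log2(RPKM + 1) with limma 3.58.1 in R 4.3.3 (variance trend, Benjamini-Hochberg adjustment, threshold 0.05), for genes above 0 in at least 2 samples of a fit. Comparisons with GFP-negative samples used 1 fit of 24 samples, and the GFP-positive comparison its own 12. The count tests planned in case of counts could not be run. The script was tested on simulated data. Alternatives are given in the closing section, and those without SC MN replicate 4 and the tests of replicates 5 and 6 were added after seeing the data. The endoderm genes and lists were chosen with earlier results of these data known.

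Fractions with the same number deviated together from their group means in all 6 pairs (r = 0.379 to 0.728 in OMN and 0.421 to 0.661 in SC MN cultures), so the numbers pair them. Across cultures not every pair did: r was above 0.1 for 4 of 6 numbers in each fraction (-0.175 to 0.707 in GFP-positive and -0.039 to 0.612 in GFP-negative cells), highest for 5 and 6, so the cultures were not taken as paired.

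Depth was estimated from the RPKM steps of 5911 genes with 1 transcript. Where a value stood for fewer than 10 reads it was whole, to a tolerance of 2%, in 95.85% to 97.82% of cases. Intervals and limits of 0 cover counting error only. Positions are from GENCODE M21, promoters from RefSeq on GRCm38.p6. All 10 genes are named. From each further list up to 4 genes called with the largest difference are named (1 such gene is not reported here), and for each endoderm gene up to 3 genes of highest correlation. The lists are those in the text, with choroid plexus, radial glia, floor plate, cardiac, endothelial, macrophage, mesenchymal, pluripotency and neuronal markers. Of the list genes, 8 (Cdx2, Apoc2, Fga, Aif1, C1qa, C1qb, Hbb-y and Hba-x) were not found in the table used here.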

Additional observations from a re-analysis of the deposited data

Results flagged for a closer look

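A sample stood apart from the other 5 of its group by Dixon's 95% criterion in 11 of the 38 gene and group combinations tested on log2(RPKM + 1), of which 3 have 5 of 6 values at 0, where any value above 0 meets the criterion. That leaves 8 of 35. The criterion's rate of 1 in 20 holds for independent normal values. It cannot be applied here, since several groups hold many values at 0 and the genes share samples. SC MN replicate 4 accounted for 4 of them: it was lowest among GFP-negative samples for Gata4 (0.844 RPKM), Gata6 (2.65 RPKM) and Dab2 (0.449 RPKM), and highest among GFP-positive samples for Gata4 (0.459 RPKM). Afp was highest in SC MN GFP-negative replicate 6 (2.47 RPKM). Ttr stood high in SC MN GFP-positive replicate 2 (9.17 RPKM) and OMN GFP-positive replicate 6 (0.950 RPKM). Small values in GFP-positive samples made up the rest: Sox17 in OMN replicate 1 (0.0451 RPKM) and SC MN replicate 3 (0.121 RPKM), Gata6 in OMN replicate 1 (0.540 RPKM) and Cubn in SC MN replicate 5 (0.231 RPKM), each resting on very few reads.

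Without SC MN replicate 4 of both fractions, the fraction difference itself differed between OMN and SC MN cultures for 5 genes by the interaction test. The interaction was 2.22 for Sox17, 2.68 for Gata4, 3.02 for Gata6, 2.64 for Dab2 and 1.49 for Cubn on the log2 scale, each from a larger excess in SC MN GFP-negative cells, and none of the 5 passed in all samples. These genes were low in GFP-positive cells, so the interaction largely repeats the OMN minus SC MN difference between GFP-negative cells. Without that replicate the latter was -2.25 for Sox17, -2.67 for Gata4, -3.09 for Gata6, -2.16 for Dab2 and -1.56 for Cubn.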

How the results depend on the processing

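The number of endoderm genes called depended on SC MN replicate 4 and on which samples set the spread, and for OMN fractions as much on the pseudocount and on sample weights. For SC MN fractions (7 called), replicates 1 to 4 alone called 0 and the fit of the 12 samples compared 1, and leaving out single samples gave 6 to 7. For OMN fractions (1 called), a pseudocount of 0.1 RPKM called 8, a mean of at least 1 RPKM 4, rescaling to the same upper quartile 4, sample quality weights 9, replicates 1 to 4 alone 0, the 12 samples compared 9, the replicate block 3, the replicate block within each culture 4, SC MN replicate 4 left out 7, with that block also 7, and leaving out single samples 1 in each case. These alternatives for OMN fractions also moved the share of all genes called, from 6.15% to between 2.27% (replicates 1 to 4) and 17.1% (weights). For GFP-negative cells between cultures (3 called), replicates 1 to 4 called 0, replicates 5 and 6 called 5, the 12 samples compared 1, replicate 4 left out 8, and the samples compared without it 7; single samples left out gave 3 to 7. For the interaction (0 called), a mean of at least 1 RPKM called 1, quality weights 3, the replicate block within each culture 1, replicate 4 left out 5, with that block 6, and single samples left out gave 0 to 5, the highest without SC MN GFP-negative replicate 4. For GFP-positive cells each alternative that gave a test called 0. The block changed no other count. Where no share of all genes stands beside a count in this section, the count cannot be read as particular to the endoderm genes.

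Signs turned only for genes that were not called. Between GFP-positive cells Gata4 turned to 0.012 without SC MN replicate 4 (-0.10 to 0.012 over single samples left out), and in replicates 5 and 6 Apoa1 turned to 0.221 and Dab2 to -0.0225. Between GFP-negative cells Afp turned to 0.019 (weights), 0.49 (replicates 1 to 4), 0.03 (without OMN replicate 1, 5 or 6) and 0.22 (without SC MN replicate 6; from -0.19), and Apoa1 to 0.28 (replicates 1 to 4). Between SC MN fractions Apoe turned to 0.40, 0.39 or 0.61 without GFP-positive replicate 3 or 6 or GFP-negative replicate 4 (from -0.83). Among interactions, Ttr turned to -0.68 (pseudocount 0.1) and -0.59 (replicates 1 to 4), Apoa1 to -0.73, -1.18 and, without SC MN GFP-negative replicate 5, -0.046 (up to 0.91), and Afp to -0.019, -0.49, -0.03 and -0.22 (up to 0.19) under the alternatives that turned it above. The causes were not tested. Shallow libraries limit genes below 1 RPKM most.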

Other observations

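Neural progenitor genes were also lower in OMN GFP-positive cells: 3 of 9 radial glia genes were called, namely Sox2 (-2.97, adjusted p = 0.00105, limma), Hes1 (-2.66, adjusted p = 0.00927) and Slc1a3 (-1.88, adjusted p = 0.00881), and 0 of 9 in SC MN cultures in all samples (1 without SC MN replicate 4). Of 10 choroid plexus genes, 2 were called lower in OMN GFP-positive cells (Otx2 and Folr1; 3 without SC MN replicate 4) and 1 in SC MN GFP-positive cells (Clic6, -1.83, adjusted p = 0.0351). Otx2 was higher in OMN than in SC MN GFP-negative cells (4.17, adjusted p = 4.83e-08), the opposite side to Gata4, Gata6 and Sox17. Of 6 floor plate genes, Foxa2 was called lower and Nkx6-1 higher (3.09, adjusted p = 0.0249) in OMN GFP-positive cells. Of 12 cardiac genes, 3 were called lower in OMN GFP-positive cells (Myl7, Myh6 and Myh7; 2 without SC MN replicate 4, Myh7 then missing the threshold) and Tbx20, which oculomotor and other cranial motor neurons also use, was called higher (3.13, adjusted p = 1.02e-08). Of all 22179 genes tested in all samples, 845 were called higher and 519 lower in OMN GFP-positive cells.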
